A study of Mus musculus with 73 samples.

Results

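Cytokines, chemokines and their receptors were followed on mouse cDNA microarrays that cover normal tissues and tumors of 4 organs and mammary tumors of 8 mouse models. A feature was a member if its single gene symbol began with Il and a digit, Ccl, Cxcl, Ccr, Cxcr, Csf, Tnfrsf or Tnfsf, or was Tnf. Tnfrsf11b, Tnfrsf10b and symbols beginning with Ilf were left out. Of the 9596 features, which carry 6795 genes, 68 features of 66 genes were members. By role they were 16 CC chemokine ligands, 6 CXC chemokine ligands, 4 chemokine receptors (Ccr2, Ccr7, Ccrl2 and Cxcr5), 5 colony-stimulating factors or their receptors, 13 interleukins, 12 interleukin receptors or receptor-associated proteins, 4 ligands of the tumor necrosis factor (TNF) family and 6 receptors of that family. The reference arrays gave values for 65 of these genes (all but Ccl25) and the direct arrays for 59 (Ccl11, Ccr7, Cxcl12, Il1rap, Il4, Il7 and Tnfrsf9 had none).

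Chemokines are small secreted proteins that bind G protein-coupled receptors and direct the migration of leukocytes, and some are made by resting epithelium or stroma rather than by inflamed tissue. Many interleukins and some colony-stimulating factors signal through type I and related cytokine receptors, many of which act through JAK kinases and STAT transcription factors, whereas the interleukin-1 and TNF families act largely through NF-kB. In glands and lung these genes are expressed by resident leukocytes, stroma, endothelium and epithelium, and RNA of whole tissue mixes all of them.

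The study hybridised 73 arrays of total RNA. On 35 of them RNA of 1 tissue, labelled with Cy3, was compared with a universal mouse reference RNA in Cy5. The values are log2 ratios, so that a difference of 1 is a 2-fold change, and they were read as tissue over reference. The remaining 38 arrays carried Cy5-labelled mammary tumor RNA together with Cy3-labelled RNA of wild-type mammary gland of that strain, and their ratio is tumor over normal gland. No direct array had the dyes swapped. A dye effect on a single gene, which median centring leaves in place, therefore cannot be told apart from a tumor change that recurs across the models.

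The reference arrays held normal prostate (n = 4) and normal seminal vesicle (n = 4) of wild-type C57BL/6 mice, and prostate tumors (n = 5) and seminal vesicle tumors (n = 6) of C57BL/6 TRAMP mice, in which a probasin (PB) promoter drives the SV40 T/t-antigen. They also held normal mammary gland (n = 4) and normal lung (n = 4) of wild-type FVB mice, mammary tumors of FVB C3(1)/SV40 T/t-antigen mice (n = 4), and lung tumors of FVB CC10/SV40 T/t-antigen mice (n = 4). Probasin is a prostate gene, the C3(1) promoter comes from a rat prostate gene and is active in mammary epithelium, and CC10 is a gene of airway club cells. Strain was the same within each site, but prostate and seminal vesicle were of one strain and mammary gland and lung of another, so strain and organ pair cannot be told apart in comparisons across them. The direct arrays held tumors of transplanted p53-/- mammary tissue in Balb/c mice (p53 null transplant, n = 5), of p53fp/fp;WAP-cre mice (p53 floxed, n = 4) and Brca1 Co/Co;MMTV-cre;p53 mice (Brca1, n = 5) on C57BL6/129sv, and of FVB mice with C3(1)/SV40 T/t-antigen (n = 5), MMTV-PyMT (n = 5), MMTV-ras (n = 5), MMTV-myc (n = 4) or MMTV-her2/neu (n = 5). WAP is a milk protein gene whose promoter is active in secretory mammary epithelium, and MMTV is the promoter of mouse mammary tumor virus. The labels give no ages and do not say that samples of a group came from separate animals, so p-values measure the spread between these samples.

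Correlations between arrays of 1 group over all genes (features with 1 gene symbol, averaged per gene) ran from 0.75 to 0.96 on the reference arrays and from 0.31 to 0.88 on the direct arrays. The medians of the direct arrays as deposited ran from -0.42 to 0.66, so each direct array was centred on its median before the fit, and a direct change is a change relative to the median feature. By model, the mean of these array medians was 0.33 for C3(1) Tag, 0.22 for MMTV-myc, 0.19 for Brca1, 0.18 for MMTV-ras and -0.11 for p53 floxed, and -0.03 for each of the other 3. Changes were tested with limma over all genes of an array set, and a gene was called at a Benjamini-Hochberg adjusted p under 0.05. Ccl2, Ccl7, Ccl8, Ccl11 and Ccl12, as well as Ccl6 and Ccl9, are similar in sequence, and Ccl27a and Csf2rb2 have near-identical copies, so cross-hybridisation between them on cDNA spots cannot be told apart from expression. Because whole tissue was measured, fewer cells of a type and less RNA per cell cannot be told apart for any change below.

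Promoters are shown for the ligands that were called higher in both mammary tumor models on C57BL6/129sv, Brca1 and p53 floxed, since these ligands recur in the results on the direct arrays. Among the members tested 6 (10.2%) were called higher in both (Il1b, Ccl2, Ccl8, Cxcl10, Il13ra1 and Tnfrsf23), beside 10.8% of all genes, and the Brca1 calls of Ccl8 and Cxcl10 ended without single arrays. Of the 6 genes, 5 had an entry among the RefSeq promoters of GRCm38.p6, and 3 of these encode ligands. The 250 bases before the transcription start are given 5′ to 3′ on the strand of the gene, with motif matches in capitals. Cxcl10, a ligand of Cxcr3 that attracts T cells, lies at chr5:92348890-92349139 on the minus strand. Il1b, the interleukin-1 beta gene, lies at chr2:129371140-129371389 on the minus strand. Ccl8, a ligand for receptors on monocytes and T cells, lies at chr11:82114935-82115184 on the plus strand.
Cxcl10: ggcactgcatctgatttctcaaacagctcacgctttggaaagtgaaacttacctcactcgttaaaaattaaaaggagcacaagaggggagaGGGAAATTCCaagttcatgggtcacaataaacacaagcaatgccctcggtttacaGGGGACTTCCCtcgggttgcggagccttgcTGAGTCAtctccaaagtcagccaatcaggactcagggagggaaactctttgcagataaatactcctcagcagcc
Il1b: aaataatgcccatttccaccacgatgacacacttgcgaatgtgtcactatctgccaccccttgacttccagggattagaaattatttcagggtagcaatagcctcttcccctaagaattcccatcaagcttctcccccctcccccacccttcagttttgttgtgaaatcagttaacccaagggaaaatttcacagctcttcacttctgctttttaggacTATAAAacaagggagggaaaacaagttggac
Ccl8: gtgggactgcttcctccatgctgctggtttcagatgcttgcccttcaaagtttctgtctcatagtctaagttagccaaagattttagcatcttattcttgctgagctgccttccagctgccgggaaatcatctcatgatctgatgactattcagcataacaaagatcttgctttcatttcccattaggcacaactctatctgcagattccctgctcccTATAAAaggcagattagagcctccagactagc
The motifs searched on both strands were the NF-kB consensus, AP-1 (TGANTCA), the gamma-activated site GAS (TTCNNNGAA) and the TATA box (TATAAA). Cxcl10 held an NF-kB match at -159 to -150 and overlapping matches at -104 to -94, counted from the start site, and an AP-1 match at -74 to -68. In Il1b a TATA match lay at -31 to -26, and in Ccl8 at -32 to -27. No match overlapped a match of another motif. Among all 27025 promoters of this length, 7.01% held the NF-kB consensus, 6.87% AP-1, 7.18% GAS and 13% the TATA box. Of the 50 member promoters in the table, 14% held NF-kB, 6% AP-1, 12% GAS and 28% TATA. A match describes the letters of this window only.

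The first comparison asked how far the 4 normal tissues differed. Among the 64 members tested, 54 (84.4%) differed between normal prostate, seminal vesicle, mammary gland and lung, beside 79.5% of all genes. The members with the smallest p were Cxcl15, Ccr7, Il15, Csf2, Ccl28 and Tnfrsf1a. The order of the tissues differed from gene to gene.

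Cxcl15, also called lungkine, is a neutrophil-attracting CXC chemokine made by lung epithelium. Its ratio was 4.16, 3.25, 2.56 and 3.50 on the 4 arrays of normal lung. In normal mammary gland it was 1.58, 0.82, 1.17 and 0.89, in prostate 0.49, 0.54, 0.74 and 0.14, and in seminal vesicle -0.05, -0.20, -0.19 and -0.17. Lung stood above every other array, and no 2 neighbouring tissues in this order overlapped (limma F test, adjusted p = 2.76e-14). Ccr7, the receptor that guides T cells and dendritic cells to lymph nodes, was highest in normal mammary gland, at 1.76, 1.78, 1.50 and 1.97. Its arrays of seminal vesicle lay between 0.33 and 0.83 and those of lung between 0.09 and 0.80, which overlapped, and prostate had a mean of 0.02 ± 0.29 (SD, n = 4; limma F test, adjusted p = 5.73e-11). Mammary gland did not overlap any of the 3 others for Ccr7.

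Il15, a cytokine that maintains natural killer cells and memory T cells, was highest in normal seminal vesicle, at 1.53, 1.24, 1.27 and 1.65. Prostate followed at 1.12, 0.99, 0.79 and 0.75, and mammary gland (0.30 ± 0.23, SD, n = 4) and lung (0.19 ± 0.14, SD, n = 4) lay below and overlapped each other (limma F test, adjusted p = 1.64e-10). Csf2, the granulocyte-macrophage colony-stimulating factor, was also highest in seminal vesicle, at 1.21, 0.98, 1.25 and 1.49. Its means were 0.38 ± 0.12 (SD, n = 4) in prostate, 0.18 ± 0.27 in lung and -0.13 ± 0.19 in mammary gland, and neighbours in that order overlapped (limma F test, adjusted p = 2.19e-10). Ccl28, a mucosal chemokine of secretory epithelium, was highest in normal prostate, at 3.24, 2.85, 3.16 and 2.95. Mammary gland gave 1.51, 1.52, 1.96 and 1.28 for Ccl28, and lung 0.71, 0.43, 1.14 and 1.25, with no overlap between them, whereas the highest seminal vesicle array and the lowest lung array were both 0.43 (limma F test, adjusted p = 1.35e-09). Tnfrsf1a, the main TNF receptor, fell into an upper pair, mammary gland (0.38 ± 0.25) and lung (0.33 ± 0.18), and a lower pair, prostate (-0.57 ± 0.17) and seminal vesicle (-0.62 ± 0.05; SD, n = 4 each; limma F test, adjusted p = 2.22e-09).

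**Figure D1:**
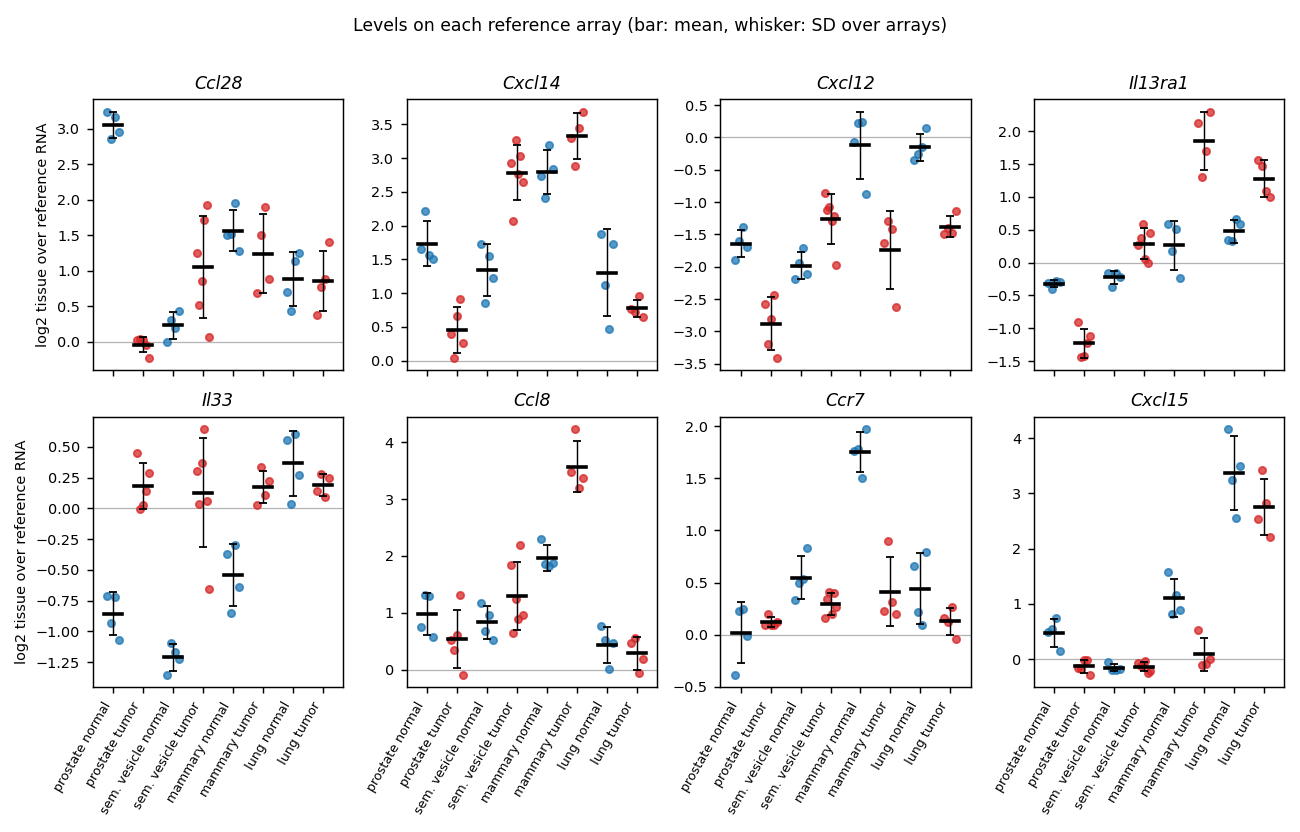
Log2 ratio of tissue over reference RNA for Ccl28, Cxcl14, Cxcl12, Il13ra1, Il33, Ccl8, Ccr7 and Cxcl15 in the 8 groups of reference arrays. Points are arrays, bars are group means and whiskers are the SD; Ccl28 is near 3 in normal prostate alone, and Cxcl12 lies lower in tumor than in normal tissue at every site but the seminal vesicle.

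The second comparison asked what changed in the tumor at each of the 4 sites. In prostate tumors of TRAMP mice the members moved mostly down. Of the 64 tested, 23 (35.9%) were lower and 6 (9.38%) higher than in normal prostate, beside 32.2% and 29.2% of all genes. Their median change was -0.20, beside -0.03 over all genes. The CC ligands had 6 of 15 lower and 1 higher, the CXC ligands 3 of 6 lower, the colony-stimulating factor group 4 of 5 lower, the interleukins 4 of 13 lower and 2 higher, and the interleukin receptors 4 of 12 lower and 1 higher. In the TNF group the receptors had 2 of 6 higher and the 3 tested ligands did not pass. The chemokine receptors Ccrl2 (-0.79 ± 0.13, SE) and Cxcr5 (-0.62 ± 0.09, SE) fell. For 22 members (34.4%) the tumor and normal arrays did not overlap, beside 53.5% of all genes.

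Ccl28 had the largest change of any member in prostate. The 5 prostate tumors gave ratios of 0.03, 0.04, 0.02, -0.04 and -0.22, all below the 4 normal prostates, which lay between 2.85 and 3.24. The fall was -3.08 ± 0.27 (SE; limma, adjusted p = 9.98e-12). Ccl11, or eotaxin, which attracts eosinophils, gave 1.81, 1.33, 1.33 and 1.11 in normal prostate and -0.16, 0.31, 0.02, 0.03 and -0.14 in tumors. The groups did not overlap, and Ccl11 fell by 1.38 ± 0.19 (SE; limma, adjusted p = 1.65e-07).

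Il15 went from 1.12, 0.99, 0.79 and 0.75 in normal prostate to -0.27, -0.44, -0.47, -0.37 and -0.47 in the tumors. With no overlap, the change in Il15 was -1.32 ± 0.12 (SE; limma, adjusted p = 1.29e-11). Il1r1, the signalling receptor for interleukin-1, was -0.37, -0.82, -0.47 and -0.53 in normal prostate and -1.80, -1.63, -1.84, -1.41 and -1.42 in tumors. Every tumor lay below every normal sample for Il1r1, a change of -1.07 ± 0.14 (SE; limma, adjusted p = 7.14e-08). Cxcl14, an epithelial chemokine of skin and glands, dropped from 1.65, 2.22, 1.56 and 1.50 to 0.40, 0.04, 0.66, 0.91 and 0.27. The change in Cxcl14 was -1.28 ± 0.24 (SE; limma, adjusted p = 3.08e-05), again without overlap.

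Cxcl12, the stromal ligand of Cxcr4, was -1.89, -1.60, -1.38 and -1.69 in normal prostate and -2.58, -3.19, -2.80, -2.43 and -3.40 in tumors. It fell by 1.24 ± 0.24 (SE; limma, adjusted p = 3.08e-05), and the groups did not overlap. Il13ra1, a chain of the receptors for interleukin-13 and interleukin-4, was between -0.40 and -0.29 in the 4 normal prostates and -0.91, -1.44, -1.42, -1.22 and -1.12 in tumors, a change of -0.90 ± 0.17 (SE; limma, adjusted p = 2.33e-05). Il33, an interleukin-1 family alarmin of stromal and epithelial nuclei, moved the other way. Its normal values were -0.71, -0.93, -0.72 and -1.07 and its tumor values 0.45, 0.00, 0.03, 0.14 and 0.29, a rise of 1.04 ± 0.16 (SE; limma, adjusted p = 1.69e-06). Il33 was the only member that rose in prostate tumors by more than 1 on the log2 scale.

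The growth factors of granulocytes and macrophages fell in prostate tumors too. Csf1 was -1.88, -1.77, -1.34 and -1.74 in normal prostate and -2.24, -2.01, -2.54, -2.56 and -2.64 in tumors (-0.71 ± 0.17, SE; limma, adjusted p = 0.000632). Csf2 was 0.24, 0.33, 0.44 and 0.50 against -0.06, -0.18, -0.07, -0.10 and -0.34 (-0.52 ± 0.12, SE; limma, adjusted p = 0.000303), and Csf3 was 0.41, 0.64, 0.75 and 0.54 against 0.05, -0.02, 0.02, -0.13 and -0.19 (-0.64 ± 0.15, SE; limma, adjusted p = 0.000479). None of these 3 genes overlapped. Il6st, or gp130, the shared signalling chain of the interleukin-6 family, was 0.33, 0.14, 0.27 and 0.16 in normal prostate and -0.35, -0.34, -0.54, -0.50 and -0.38 in tumors, again without overlap (-0.65 ± 0.09, SE; limma, adjusted p = 2.94e-07).

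Il1b, the central ligand of interleukin-1 signalling, was 0.83, 0.56, 0.36 and 0.76 in normal prostate and 0.09, 0.21, 0.62, -0.07 and 0.17 in tumors, which overlapped (-0.42 ± 0.15, SE; limma, adjusted p = 0.0152). The call for Il1b ended with quantile normalisation (-0.34), without normal prostate 1 (-0.36) or without prostate tumor 4 (-0.35). Ccl2, the main monocyte-attracting chemokine, was -1.64, -0.90, -0.62 and -1.09 against -0.98, -1.63, -1.89, -2.08 and -1.64, also with overlap (-0.58 ± 0.21, SE; limma, adjusted p = 0.0166). The call for Ccl2 ended without normal prostate 3 (-0.43) or prostate tumor 4 (-0.47).

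The tissue makeup of the normal and tumor prostate samples also differed. All 9 measured skeletal muscle markers were lower in the tumors, and the list's mean level was 4.36 in normal prostate (arrays from 3.90 to 5.08) and -0.05 in tumors (-0.17 to 0.19). The 7 measured adipocyte markers all fell, from a mean of 1.95 (1.84 to 2.03) to 0.10 (-0.04 to 0.25), and the 6 measured epithelial markers all fell, from 1.23 (1.04 to 1.37) to -1.04 (-1.27 to -0.75). Mast cell markers fell in 3 of 3, from 0.62 (0.48 to 0.75) to -0.29 (-0.68 to -0.17), neutrophil markers in 4 of 6, from 0.57 (0.29 to 1.26) to -0.28 (-0.45 to -0.16), and endothelial markers in 5 of 7, from 0.86 (0.77 to 0.90) to 0.25 (0.15 to 0.44). Of 6 common leukocyte markers 2 rose. The part of these lists in the member changes was not tested.

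**Figure D2:**
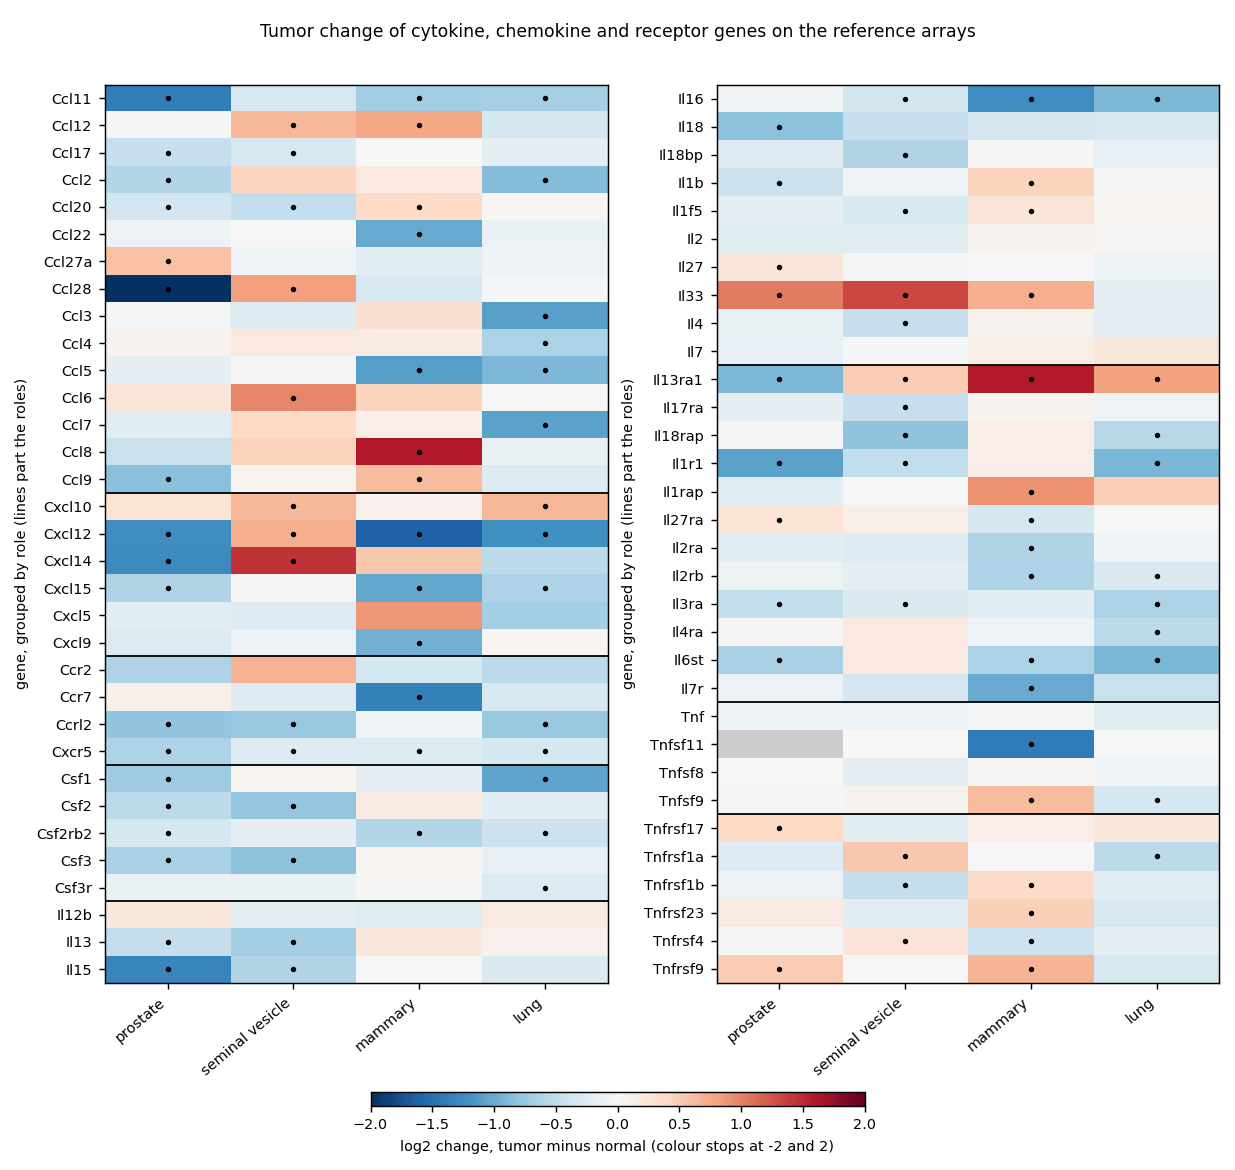
Tumor minus normal change (log2, colour from -2 to 2) of 65 members, in rows grouped by role, in prostate, seminal vesicle, mammary gland and lung. Dots mark an adjusted p under 0.05 and grey a gene that was not tested; the prostate and lung columns hold mostly lower calls, and Il13ra1 and Il33 are the members called higher at 3 sites.

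Seminal vesicle tumors of TRAMP mice showed a mixed pattern. Of 65 members, 10 (15.4%) were higher and 17 (26.2%) lower than in normal seminal vesicle, beside 23.3% and 20.2% of all genes, with a median change of -0.12 beside 0.04. The CXC ligands had 3 of 6 higher and none lower, and the CC ligands 3 of 15 higher and 2 lower. The interleukins had 6 of 13 lower and 1 higher, the interleukin receptors 4 of 12 lower and 1 higher, the colony-stimulating factor group 2 of 5 lower, the chemokine receptors 2 of 4 lower and the TNF receptors 2 of 6 higher and 1 lower. The arrays of 20 members did not overlap between tumor and normal (30.8%), beside 33.2% of all genes.

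Cxcl14 was 1.73, 0.85, 1.55 and 1.22 in normal seminal vesicle, and the 6 tumors ran from 2.07 to 3.26 with a median of 2.85. The groups did not overlap, and Cxcl14 rose by 1.45 ± 0.23 (SE; limma, adjusted p = 1.16e-05). Il33 was -1.35, -1.09, -1.17 and -1.22 in normal tissue and ran from -0.65 to 0.64 in tumors (median 0.18), a rise of 1.34 ± 0.16 (SE; limma, adjusted p = 1.14e-07). Ccl6, a mouse CC chemokine of myeloid cells, lay between -0.06 and 0.24 in normal samples and between 0.38 and 2.14 in tumors (median 0.72), and rose by 0.98 ± 0.26 (SE; limma, adjusted p = 0.00342). The spread of Ccl6 in tumors was wide, with 1.85 and 2.14 on 2 of the 6 arrays and at most 0.87 on the others.

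Ccl28, which fell in prostate tumors, rose here. Normal seminal vesicle gave 0.00, 0.31, 0.19 and 0.43 and tumors ran from 0.07 to 1.93 with a median of 1.05, so the groups overlapped (0.82 ± 0.26, SE; limma, adjusted p = 0.0101). Csf3, the granulocyte colony-stimulating factor, was 1.41, 1.12, 1.32 and 1.16 in normal tissue and lay between 0.19 and 0.63 in tumors (median 0.47). Without overlap, Csf3 fell by 0.82 ± 0.15 (SE; limma, adjusted p = 4e-05). Its neighbour in function Csf2 was 1.21, 0.98, 1.25 and 1.49 in normal samples and between 0.32 and 0.59 in tumors (median 0.48), a fall of 0.77 ± 0.11 (SE; limma, adjusted p = 3.75e-06).

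A further 3 members fell without overlap of the groups. Ccrl2, an atypical chemerin-binding receptor, was 0.84, 0.63, 0.70 and 0.54 in normal seminal vesicle and between -0.27 and 0.10 in tumors, a change of -0.76 ± 0.12 (SE; limma, adjusted p = 1.04e-05). Il13, a type 2 cytokine, was 1.11, 0.78, 1.06 and 0.97 in normal samples and between 0.12 and 0.40 in tumors, a change of -0.67 ± 0.13 (SE; limma, adjusted p = 0.000117). For Il18bp, the soluble inhibitor of interleukin-18, the values were 1.43, 0.96, 1.28 and 1.29 against 0.51 to 0.83, a change of -0.61 ± 0.14 (SE; limma, adjusted p = 0.000644). Cxcl12 (0.73 ± 0.23, SE) and Il13ra1 (0.51 ± 0.16, SE), which fell in prostate tumors, rose in seminal vesicle tumors. Quantile normalisation took the rise of Cxcl12 to 0.18 and that of Il13ra1 to 0.45, and neither then passed.

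The TNF receptors went opposite ways in seminal vesicle tumors. Tnfrsf1a was -0.62, -0.58, -0.68 and -0.58 in normal tissue and between -0.33 and 0.41 in tumors, without overlap, and rose by 0.53 ± 0.12 (SE; limma, adjusted p = 0.000589). Tnfrsf1b was -0.06, 0.18, 0.05 and -0.10 in normal tissue and between -0.92 and 0.01 in tumors, which overlapped, and its change was -0.48 ± 0.13 (SE; limma, adjusted p = 0.00334).

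Normal and tumor seminal vesicle arrays shared no block of neighbouring database numbers. What these numbers stand for is not stated in the labels, and they cannot be told apart from the tissue state here. With the blocks as a factor, a fit that ties the 2 groups through 1 mammary tumor array, the changes of Ccl28 (-0.025), Cxcl12 (-0.50), Ccrl2 (0.24) and Il1r1 (0.17) turned sign and did not pass. In that fit 7 members were called, all of them among the 27 (Ccl20, Csf2, Cxcl10, Il13, Il13ra1, Il33 and Il4), and the calls for Tnfrsf1a (0.81) and Tnfrsf1b (-0.28) were lost. Over all genes calls fell as well, to 871 of 6767, where the main fit had 1577 higher and 1364 lower. Fibroblast markers moved with the tumors: 5 of 6 rose, from a mean of -1.27 (arrays from -1.38 to -1.16) to 0.26 (-0.66 to 0.80). Of 11 macrophage markers, 4 rose, from a mean of 0.30 (0.21 to 0.37) to 0.72 (0.58 to 1.11). Mast cell markers fell in 3 of 3, from 0.65 (0.49 to 0.79) to 0.024 (-0.07 to 0.19), and neutrophil markers in 3 of 6, from 0.63 (0.49 to 0.74) to 0.066 (-0.12 to 0.16). Their part in the member changes was not tested.

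Mammary tumors of C3(1)/SV40 T/t-antigen mice had 13 of 65 members (20%) higher and 17 (26.2%) lower than normal mammary gland, beside 16.6% and 20.1% of all genes. The members' median change was 0.02, beside -0.02. Here the CC ligands had 4 of 15 higher and 3 lower, the CXC ligands 3 of 6 lower, the interleukin receptors 5 of 12 lower and 2 higher, the interleukins 3 of 13 higher and 1 lower, and the TNF receptors 3 of 6 higher and 1 lower. The chemokine receptors had 2 of 4 lower, the colony-stimulating factor group 1 of 5 lower, and the TNF ligands 1 of 4 in each direction. Tumor and normal arrays of 20 members (30.8%) did not overlap, beside 31.9% of all genes.

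Ccl8 was 2.30, 1.86, 1.82 and 1.88 in normal mammary gland and 3.48, 4.23, 3.20 and 3.38 in tumors. Every tumor exceeded every normal gland, and Ccl8 rose by 1.61 ± 0.28 (SE; limma, adjusted p = 2.23e-05). Il13ra1 went from 0.58, 0.18, 0.52 and -0.23 to 2.12, 1.30, 1.70 and 2.29, a rise of 1.59 ± 0.18 (SE; limma, adjusted p = 1.02e-08). Cxcl12 moved down, from -0.08, 0.22, 0.23 and -0.88 to -1.64, -1.30, -1.42 and -2.63, a change of -1.62 ± 0.25 (SE; limma, adjusted p = 3.38e-06). None of the 3 overlapped between normal and tumor.

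The next 5 members were lower in the tumors. Ccr7 was 1.76, 1.78, 1.50 and 1.97 in normal gland and 0.23, 0.90, 0.32 and 0.20 in tumors, a change of -1.34 ± 0.15 (SE; limma, adjusted p = 1.23e-08). Il16, a ligand of CD4 made by lymphocytes, was 0.77, 0.98, 0.77 and 0.72 in normal gland and -0.37, -0.27, -0.70 and -0.40 in tumors, a change of -1.25 ± 0.15 (SE; limma, adjusted p = 5.5e-08). Neither gene overlapped. Ccl5, or RANTES, a product of activated T and natural killer cells, was 0.65, 0.43, 0.42 and 0.05 in normal gland and -0.64, -0.54, -0.91 and -0.75 in tumors, and fell by 1.10 ± 0.14 (SE; limma, adjusted p = 2.42e-07). Ccl22, a ligand of Ccr4 made by dendritic cells and macrophages, was 1.47, 1.24, 1.51 and 0.70 against 0.21, -0.10, 0.22 and 0.58, and fell by 1.00 ± 0.15 (SE; limma, adjusted p = 1.89e-06). Cxcl15 was 1.58, 0.82, 1.17 and 0.89 against 0.53, -0.10, -0.08 and 0.00 (-1.03 ± 0.22, SE; limma, adjusted p = 0.000387). The lowest normal array exceeded the highest tumor array for Ccl5, Ccl22 and Cxcl15 alike.

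Il7r, the interleukin-7 receptor of lymphocytes, also fell by 1.00 ± 0.24 (SE). Tnfsf11, chosen for mention after its values were seen, is RANKL, the progesterone-responsive mammary ligand that also drives osteoclasts. It was 2.29, 2.74, 2.57 and 0.46 in normal gland and 0.67, 0.63 and 0.56 on the 3 tumor arrays with a value. The fourth normal sample lay below all tumors, so the groups overlapped for Tnfsf11 (-1.39 ± 0.29, SE; limma, adjusted p = 0.000442).

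Il1b was 0.30, -0.05, 0.05 and 0.21 in normal gland and 0.49, 0.40, 0.38 and 1.03 in tumors, and Tnfrsf1b was -0.35, -0.45, -0.39 and -0.49 against 0.12, -0.11, -0.05 and -0.08. Neither overlapped, and they rose by 0.45 ± 0.16 (SE; limma, adjusted p = 0.0247) and 0.39 ± 0.14 (SE; limma, adjusted p = 0.0295). The call for Il1b ended without normal gland 2 (0.39) or 3 (0.42) or tumor 4 (0.30), and that for Tnfrsf1b without normal gland 2 (0.38) or 4 (0.37) or tumor 1 (0.34). Il6st was 0.57, 0.45, 0.50 and 0.35 in normal gland and -0.17, -0.13, -0.15 and -0.22 in tumors, a fall without overlap (-0.64 ± 0.10, SE; limma, adjusted p = 2.81e-06).

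Leukocyte marker lists went different ways in the same samples. Of 11 macrophage markers 1 rose and 0 fell, with a mean of 1.44 in normal gland (arrays from 1.18 to 1.61) and 1.51 in tumors (1.40 to 1.61). Of 6 neutrophil markers 1 rose and 0 fell (means -0.07 and 0.23), and of 3 mast cell markers 2 fell (1.23 and 0.46). Among T cell markers 5 of 6 fell, from a mean of 0.62 in normal gland (arrays from 0.30 to 0.79) to -0.21 in tumors (-0.29 to -0.14), and all 4 B cell markers fell, from 0.72 (0.35 to 0.95) to -0.26 (-0.50 to -0.07). Common leukocyte markers fell in 4 of 6, from 0.77 (0.23 to 1.11) to -0.10 (-0.26 to 0.17), and all 7 adipocyte markers fell, from 3.96 (3.77 to 4.06) to 1.58 (0.73 to 2.43). Endothelial markers fell in 6 of 7, from 1.29 (1.13 to 1.48) to 0.38 (0.24 to 0.48). Epithelial markers rose in 4 of 6, from 0.72 (0.15 to 1.22) to 1.62 (1.49 to 1.72). The mean level of the milk markers was 3.51 in normal gland and 1.25 in tumors. Their part in the falls of Ccr7, Il16, Ccl5 and the other members was not tested.

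Lung tumors of CC10/SV40 T/t-antigen mice had the fewest higher calls of the 4 sites, 2 of 65 members (3.08%), and 22 (33.8%) lower, beside 16.2% and 20.4% of all genes. The median change of the members was -0.27, beside -0.06. Lower calls took in 6 of 15 CC ligands, 6 of 12 interleukin receptors, 3 of 5 of the colony-stimulating factor group, 2 of 6 CXC ligands, 2 of 4 chemokine receptors, and 1 each of the interleukins, TNF ligands and TNF receptors. The higher calls were Il13ra1 (0.80 ± 0.18, SE) and Cxcl10 (0.67 ± 0.23, SE), and that of Cxcl10 ended without normal lung 1 (0.60) or 4 (0.57) or lung tumor 3 (0.49). Arrays did not overlap for 20 members (30.8%), beside 34.4% of all genes.

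Cxcl12 was -0.35, -0.25, -0.15 and 0.14 in normal lung and -1.50, -1.40, -1.48 and -1.14 in tumors, and fell by 1.23 ± 0.25 (SE; limma, adjusted p = 0.000184). Csf1, the growth factor of macrophages, was -1.25, -1.01, -0.72 and -1.17 in normal lung and -2.11, -2.39, -1.72 and -2.15 in tumors, a change of -1.05 ± 0.18 (SE; limma, adjusted p = 2.56e-05). Neither overlapped. Among the monocyte-attracting ligands, Ccl7 was -1.42, -0.72, -0.99 and -1.55 against -2.24, -2.37, -2.18 and -2.17 (-1.07 ± 0.25, SE; limma, adjusted p = 0.000952). Ccl3, or MIP-1 alpha, was -2.14, -1.74, -1.35 and -1.09 in normal lung and -3.06, -2.76, -2.55 and -2.30 in tumors (-1.08 ± 0.36, SE; limma, adjusted p = 0.0161). The call for Ccl3 ended without normal lung 4 (-0.92) or without lung tumor 1 (-0.95). For both Ccl7 and Ccl3 every tumor lay below every normal lung. Ccl2 was -0.85, -0.85, -1.28 and -1.48 in normal lung and -2.37, -1.94, -2.10 and -1.50 in tumors, with no overlap (-0.86 ± 0.22, SE; limma, adjusted p = 0.00234).

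Il6st was 1.08, 0.69, 1.08 and 0.92 in normal lung and -0.06, -0.03, 0.12 and 0.11 in tumors. It fell by 0.91 ± 0.10 (SE; limma, adjusted p = 5.91e-09), the smallest p of any member in lung. Il1r1 was 0.14, 0.07, 0.08 and 0.13 in normal lung and -0.69, -0.54, -1.10 and -0.91 in tumors (-0.91 ± 0.15, SE; limma, adjusted p = 9.81e-06). Il16 was 0.45, 0.19, -0.01 and 0.55 against -0.70, -0.68, -0.38 and -0.63, and Ccl5 was -0.01, -0.08, -0.24 and -0.02 against -1.12, -1.16, -0.70 and -0.96. No tumor reached a normal lung for any of these 4 genes, and the changes of the last pair were -0.89 ± 0.15 and -0.90 ± 0.14 (SE). Tnfrsf1a was 0.40, 0.11, 0.27 and 0.54 in normal lung and -0.42, -0.11, 0.02 and -0.30 in tumors, and fell without overlap (-0.53 ± 0.13, SE; limma, adjusted p = 0.00158).

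In these samples 7 of 7 endothelial markers fell, from a mean of 2.06 in normal lung (arrays from 1.72 to 2.43) to 0.71 in tumors (0.48 to 0.84). Common leukocyte markers fell in 5 of 6, from 0.23 (-0.04 to 0.51) to -0.64 (-0.84 to -0.52), and 4 of 11 macrophage markers fell, from 0.98 (0.77 to 1.13) to 0.54 (0.40 to 0.70). T cell markers fell in 5 of 6, from 0.031 (-0.07 to 0.09) to -0.43 (-0.49 to -0.36), and B cell markers in 3 of 4, from 0.15 (-0.03 to 0.26) to -0.34 (-0.55 to -0.24). Fibroblast markers fell in 4 of 6, from -0.69 to -1.57, whereas all 6 epithelial markers rose, from 0.39 (0.19 to 0.57) to 1.76 (1.60 to 1.89). Their part in the member changes was not tested.

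Across the 4 sites, 7 of 65 members (10.8%) were called nowhere, beside 13% of all genes, and 13 (20%) were called higher at one site and lower at another, beside 20.9%. Lower at 3 or more sites were 10 (15.4%), beside 7.47% of all genes, and higher at 3 or more 2 (3.08%), beside 9.38%. Cxcr5, the receptor of follicular B cells and singled out after its values were seen, was lower at all 4, by -0.62 in prostate, -0.26 in seminal vesicle, -0.27 in mammary gland and -0.35 in lung. Its call in mammary gland ended without any 1 of 5 arrays (-0.20 without normal 1) and its call in seminal vesicle without any 1 of 3 (-0.22 without tumor 4). Il13ra1 and Il33 were the 2 members higher at 3 sites, and both had an exception. Il13ra1 fell in prostate, and Il33 did not pass in lung, where normal samples were 0.56, 0.04, 0.60 and 0.27 and tumors 0.14, 0.28, 0.10 and 0.24.

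The third comparison tested whether the tumor change itself differed between sites. It did for 50 of 64 members (78.1%) in an F test over the 4 sites, beside 74.1% of all genes. The smallest p belonged to Ccl28 (adjusted p = 1.01e-09, limma), Il13ra1 (2.93e-09), Il6st (4.67e-08), Cxcl14 (1.42e-07), Il15 (2.68e-07) and Cxcl12 (6.92e-07). Il6st has 2 features, which fell in prostate, mammary gland and lung alike but differed in seminal vesicle, at -0.17 (adjusted p = 0.122, limma) and 0.56 (adjusted p = 0.00164, limma), so its change there depends on the clone.

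Within the TRAMP model, the prostate change was set against the seminal vesicle change. It was lower for 16 of 64 members and higher for 5, beside 24.1% and 22.6% of all genes, with a median difference of -0.13 beside 0.03. With quantile normalisation 11 were lower and 6 higher, where 1557 of 2998 calls over all genes were higher. Ccl28 had a difference of -3.91 ± 0.37 (SE; limma, adjusted p = 2.65e-10), Cxcl14 one of -2.72 ± 0.34 (5.37e-08), Cxcl12 one of -1.97 ± 0.33 (7.5e-06) and Il13ra1 one of -1.42 ± 0.23 (6.55e-06). These 4 genes fell in prostate tumors and rose in seminal vesicle tumors. Il15 and Il1r1 fell at both sites, further in prostate (differences of -0.72 ± 0.16 and -0.57 ± 0.20, SE). With the database blocks as a factor, 9 members were called, 8 of them among the 21, and the differences of Cxcl12 (-1.01) and Il15 (-0.60) did not pass. Over all genes that fit called 1733 of 6759, where the main fit had 1526 higher and 1630 lower.

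Within FVB, the mammary change was set against the lung change, and here the members leaned toward the mammary gland. The difference was positive for 20 of 65 members and negative for 5, beside 12.2% and 12% of all genes, with a median difference of 0.21 beside 0.01. The CC ligands had 7 of 15 positive and 1 negative and the TNF receptors 4 of 6 positive. Ccl8 differed by 1.76 ± 0.39 (SE; limma, adjusted p = 0.00124), Ccl7 by 1.21 ± 0.35 (0.0115), Ccl2 by 1.05 ± 0.31 (0.0129), Il1r1 by 1.05 ± 0.21 (0.00038), Il33 by 0.89 ± 0.24 (0.00656) and Csf1 by 0.86 ± 0.26 (0.0139). Ccl3 differed by 1.40 ± 0.50 (SE; limma, adjusted p = 0.0393), a call that ended without any 1 of 9 arrays (1.16 to 1.44). Negative differences were those of Tnfsf11 (-1.39 ± 0.43), Ccr7 (-1.03 ± 0.21), Ccl22 (-0.88 ± 0.21), Il2ra (-0.52 ± 0.19, SE) and Cxcl9. Each of these 5 had its highest normal mean in mammary gland.

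Genes that carry cytokine signals inside the cell, such as JAK, STAT, SOCS and NF-kB pathway genes, were counted from a list of 52, of which 32 were tested on the reference arrays. In prostate tumors 6 were higher and 9 lower, in seminal vesicle 11 and 3, in mammary gland 4 and 9, and in lung 2 and 5. Of all genes 29.2% were higher and 32.2% lower in prostate and 23.3% and 20.2% in seminal vesicle. These shares were 16.6% and 20.1% in mammary gland and 16.2% and 20.4% in lung. Single genes of this list are named below without a set rule. Socs2, a feedback inhibitor of growth hormone and cytokine receptors, rose by 1.49 in prostate tumors and fell by 0.74 in mammary tumors. Stat3, the transcription factor of the interleukin-6 family, was higher in seminal vesicle (0.55) and mammary tumors (0.43) and lower in prostate tumors (-0.37). A second list held 43 other ligands and receptors of intercellular signals, with 23 tested: 6 were higher and 12 lower in prostate, 5 and 5 in seminal vesicle, 4 and 5 in mammary gland, and 1 and 9 in lung. The shares of all genes beside them are those just given.

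The fourth comparison asked how mammary tumors of 8 models differed from normal mammary gland on the direct arrays, where 59 members were tested. In Brca1 tumors the largest changes were the rises of Il1b (1.67), Ccl12 (1.43), Tnfrsf23 (1.31) and Ccl2 (1.30), and in p53 floxed tumors those of Cxcl10 (1.60), Ccl8 (1.29), Tnfrsf23 (1.25) and Ccl2 (1.18). The shares of members called higher and lower in these models stood near those of all genes. In the MMTV-her2/neu, MMTV-myc and MMTV-ras models all calls of the centred values were lower. Among them were Cxcl9 and Ccr2 in each model, Csf2rb2 in MMTV-her2/neu and MMTV-ras, and Il7r in MMTV-myc and MMTV-ras. The balance of higher and lower calls moved with the centring and is given for both. In the centred values 7 of 59 members (11.9%) were called lower in at least 4 models, beside 10% of all genes. Called higher in at least 4 models were 0 members, beside 13.1% of all genes.

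Brca1 tumors had the most calls, 17 higher and 12 lower, beside 26.2% and 21.2% of all genes, with a median of 0.16 beside 0.06. As deposited, 26 of 31 calls were higher, beside 2011 of 2708 over all genes, and after quantile normalisation 17 of 19, beside 1544 of 2147. Without Brca1 array 3 there were 18 calls. In p53 floxed tumors 10 were higher and 4 lower, beside 18% and 11.1% of all genes, and 8 calls were made without array 3. Here 7 of 10 calls were higher as deposited (662 of 1310 over all genes) and 12 of 13 after quantile normalisation (1279 of 1768). In p53 null transplants 3 were higher and 5 lower, beside 9.66% and 11.1%. Quantile normalisation gave 18 calls with 12 higher, beside 2154 calls with 1481 higher over all genes. The count of the centred values was 5 without array 1, 5 without array 2 and 4 without array 3.

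In C3(1) Tag tumors 7 members were higher and 14 lower, beside 22.4% and 19.5% of all genes. As deposited, all 19 calls were higher and 0 lower (59 tested by limma, with 26 at an unadjusted p under 0.05 in the centred values), and after quantile normalisation 9 of 14 were higher, so the lower calls of this model rest on the centring. Over all genes 2413 of 2663 calls were higher as deposited and 1475 of 2206 after quantile normalisation. Without C3(1) Tag array 5 there were 12 calls. MMTV-PyMT had 8 higher and 12 lower, beside 18.3% and 12%. As deposited 5 of 9 were higher (730 of 1220 over all genes), and after quantile normalisation 11 of 22 (1402 of 2099). Its count was 11 without array 1, 13 without array 2 and 9 without array 5.

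The other MMTV models had no member higher in the limma fit of centred values. MMTV-her2/neu had 0 higher and 8 lower, beside 15% and 10.9% of all genes, with 17 members at an unadjusted p under 0.05 in either direction. As deposited its 5 calls were all lower, whereas 541 of 1012 calls over all genes were higher. Quantile normalisation gave 2 of 10 higher, beside 1510 of 2249 over all genes. The count of the centred values was 2 without array 1 and 5 without array 2, 3 or 5. MMTV-myc had 0 higher and 9 lower, beside 12.2% and 10.9%, with 16 at an unadjusted p under 0.05. As deposited 3 of its 4 calls were higher (1200 of 1357 over all genes) and after quantile normalisation 3 of 9 (1145 of 1582). With the centred values 5 calls were made without array 1. MMTV-ras had 0 higher and 7 lower, beside 9.97% and 8.89%, with 12 at an unadjusted p under 0.05. Of its calls 2 of 3 were higher as deposited (993 of 1165 over all genes) and 6 of 14 after quantile normalisation (1384 of 1937). The count for MMTV-ras was 2 without array 1 and 4 without array 3 or 4. The medians of these 3 models were -0.15, -0.13 and -0.08, beside 0.00, -0.02 and 0.00 over all genes.

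**Figure D3:**
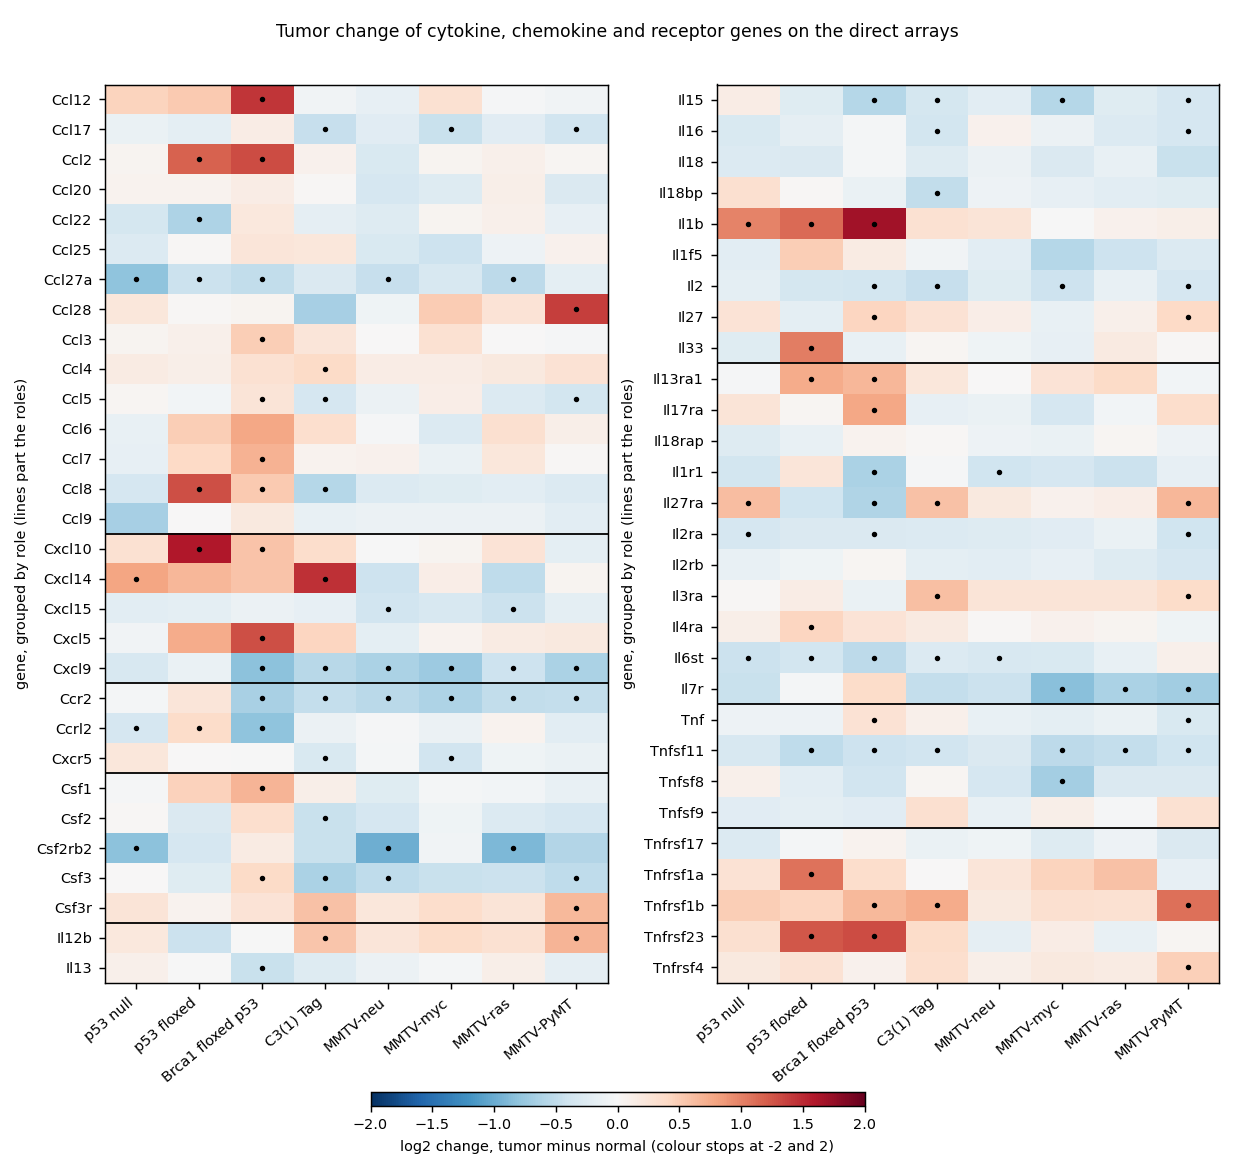
Change of 59 members against normal mammary gland (log2, centred, colour from -2 to 2) in the 8 direct models, in rows grouped by role. Dots mark an adjusted p under 0.05. The Brca1 column holds 29 dots and the MMTV-ras column 7, and Cxcl9, Ccr2 and Tnfsf11 are each called lower in 6 models. Lower in at least 4 models were 11.9% of the members and 10% of all genes.

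Il1b was 0.06, 2.48, 3.18, 1.82 and 0.84 on the 5 Brca1 arrays, 0.70, 2.15, 1.33 and 0.36 in p53 floxed tumors, and 0.89, 1.03, 1.16, 0.67 and 1.23 in p53 null transplants. All 14 ratios were above 0. The means were 1.67 ± 0.23 (SE; limma, adjusted p = 3.63e-07), 1.13 ± 0.26 (0.000984) and 1.00 ± 0.23 (0.00158). In the other 5 models no array exceeded 0.59, and none of these models passed.

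Ccl2, a ligand of Ccr2, was 0.48, 1.25, 3.11, 1.57 and 0.11 in Brca1 tumors and 1.94, 1.44, 0.85 and 0.50 in p53 floxed tumors. It rose in both, by 1.30 ± 0.22 (SE; limma, adjusted p = 1.3e-05) and 1.18 ± 0.25 (0.000432). Without Brca1 array 3 the Brca1 mean was 0.85 and still passed. Its relative Ccl12, or MCP-5, was 0.28, 1.53, 3.25 and 0.68 on the 4 Brca1 arrays with a value (1.43 ± 0.26, SE; limma, adjusted p = 2.4e-05), and 0.83, still passing, without array 3. Array 3 was the highest of the Brca1 arrays for both genes.

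Ccl8 was 2.52, 1.71, 0.65 and 0.27 in p53 floxed tumors and rose by 1.29 ± 0.23 (SE; limma, adjusted p = 4.36e-05). In Brca1 tumors it was 0.90, 1.06, 0.47, -0.30 and 0.48 (0.52 ± 0.20, SE; limma, adjusted p = 0.0331), with 1 of the 5 below 0, and the call ended without array 1, 2, 3 or 5 (0.39 without array 2). Cxcl10 was 3.24, 1.35, 1.56 and 0.24 in p53 floxed tumors, a rise of 1.60 ± 0.26 (SE; limma, adjusted p = 1.35e-05). In Brca1 tumors Cxcl10 was -0.04, 0.48, 1.05, 0.38 and 0.96 (0.57 ± 0.23, SE; limma, adjusted p = 0.0409), all below the first 3 p53 floxed arrays, and that call ended without array 2, 3, 4 or 5 (0.45 without array 3). The promoters of Il1b, Ccl8 and Cxcl10 are those given above.

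Tnfrsf23, a decoy-like TNF family receptor of mice, was 0.13, 1.65, 2.47, 1.06 and 1.22 in Brca1 tumors and 1.20, 0.12, 1.19 and 2.48 in p53 floxed tumors. All were above 0, and the means were 1.31 ± 0.21 (SE; limma, adjusted p = 7.1e-06) and 1.25 ± 0.24 (0.000139). Il13ra1 was called in both models, at 0.66 ± 0.25 and 0.74 ± 0.25 (SE), but the first call ended without Brca1 array 2 (0.14) and the second without p53 floxed array 1 (0.44) or 3 (0.78). Il17ra, the interleukin-17 receptor, was 0.12, 1.22, 0.77 and 1.00 on the 4 Brca1 arrays with a value (0.78 ± 0.15, SE; limma, adjusted p = 6.25e-05). In p53 floxed tumors Il33 was 3.34, 0.56, 0.52 and -0.32, and its mean of 1.03 ± 0.31 (SE; limma, adjusted p = 0.0116) became 0.25 and lost the call without array 1.

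Some members fell in Brca1 tumors. Ccrl2 was -1.47, -0.44, -1.14, -0.33 and -0.66, all below 0 (-0.81 ± 0.13, SE; limma, adjusted p = 2.7e-06), whereas in p53 floxed tumors it was 0.08, 0.33, 0.48 and 0.60 (0.37 ± 0.14, SE; limma, adjusted p = 0.044), a call lost without array 2, 3 or 4 (0.30 without array 4). Il27ra, the interleukin-27 receptor of T cells, was at or below -0.70 on 3 Brca1 arrays and 0.01 and -0.51 on the others (-0.60 ± 0.16, SE; -0.41 and not called as deposited). In MMTV-PyMT tumors Il27ra was 0.70, 0.94, 0.63, 0.47 and 0.60, in C3(1) Tag tumors 0.14, 0.54, 1.25, 0.15 and 0.82, and in p53 null transplants 1.00, 0.36, 1.25, -0.06 and 0.52. It rose in these 3 models, by 0.67 ± 0.16, 0.58 ± 0.16 and 0.61 ± 0.16 (SE), and the last 2 calls ended without C3(1) Tag array 3 (0.41) and p53 null array 3 (0.46).

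Cxcl9, an interferon-gamma-induced ligand of Cxcr3, was lower in 6 of the 8 models. Its arrays were -0.46, -0.48, -0.84 and -0.74 in MMTV-her2/neu, -0.76, -0.38, -0.58 and -1.18 in MMTV-myc, and -1.29, -1.04, -1.21, -0.33 and -0.22 in Brca1. Every array of those 3 models was below 0, as were all in MMTV-ras (-0.61 to -0.19), MMTV-PyMT (-0.73 to -0.53) and C3(1) Tag (-0.70 to -0.27). The means ran from -0.82 ± 0.14 (SE; limma, adjusted p = 1.76e-05) in Brca1 to -0.41 ± 0.14 (0.0375) in MMTV-ras, where the call ended without array 1 (-0.36), 3, 4 or 5. In p53 floxed tumors Cxcl9 was 0.16, 0.22, -0.12 and -0.78 and in p53 null transplants -0.63, -0.42, 0.04 and -0.30, and neither passed. As deposited it was called in MMTV-her2/neu (-0.69; adjusted p = 0.025, limma) and not in MMTV-myc (-0.50; adjusted p = 0.0893, limma), MMTV-ras (-0.23) or C3(1) Tag (-0.23).

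Ccr2, the receptor of inflammatory monocytes for Ccl2, was lower in 6 models. It was -0.76, -0.24, -0.77, -0.46 and -0.47 in MMTV-her2/neu (-0.54 ± 0.17, SE; limma, adjusted p = 0.0159) and -0.45, -0.92, -0.77 and -0.36 in MMTV-myc (-0.62 ± 0.19, SE; limma, adjusted p = 0.0152). The call in MMTV-her2/neu ended without array 1 or 3 (-0.48 each), and that in MMTV-myc without array 2 (-0.53) or 3 (-0.58) or as deposited (-0.40). In Brca1 tumors 4 arrays of Ccr2 were at or below -0.52 and array 3 was 0.47. The calls in MMTV-ras, MMTV-PyMT and C3(1) Tag each ended without some single array as well (the changes then lay between -0.54 and -0.39), and as deposited those in MMTV-ras (-0.31) and C3(1) Tag (-0.14) were lost. Tnfsf11 was lower in 6 models too, with means from -0.38 ± 0.13 (SE) in C3(1) Tag to -0.52 ± 0.15 in MMTV-myc. Each of its 6 calls ended without at least 1 array (the smallest change was then -0.26, without MMTV-ras array 3), and as deposited its changes in C3(1) Tag (-0.05), Brca1 (-0.22), MMTV-ras (-0.29), MMTV-myc (-0.30) and MMTV-PyMT (-0.43) did not pass.

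Csf2rb2, a mouse beta chain of the interleukin-3 receptor, was -1.17, -1.04, -0.63, -0.76 and -1.26 in MMTV-her2/neu (-0.97 ± 0.23, SE; limma, adjusted p = 0.00262) and -1.10, -0.85, -0.51, -0.41 and -1.59 in MMTV-ras (-0.89 ± 0.23, SE; limma, adjusted p = 0.00715). All 10 arrays were below 0, and both calls held as deposited. In p53 null transplants Csf2rb2 was -0.12, -0.73, -1.77, -0.80 and -0.71, and its call ended without array 3 (-0.59). Il7r was -1.70, -0.66, -1.23 and 0.28 in MMTV-myc (-0.83 ± 0.22, SE; limma, adjusted p = 0.00665), a call that ended without array 1 (-0.54). In MMTV-PyMT it was -0.73, -0.70, -0.56, -0.44 and -1.05 (-0.69 ± 0.20, SE; limma, adjusted p = 0.00726), lost without array 5 (-0.61). Its call in MMTV-ras (-0.63 ± 0.22, SE; limma, adjusted p = 0.0385) ended without array 1, 2, 3 or 5 and as deposited (-0.37). Ccl27a, a chemokine of skin-homing T cells, fell in p53 null transplants, at -0.88, -0.59, -1.37, -0.80 and -0.36 (-0.80 ± 0.14, SE; limma, adjusted p = 7.95e-05). It was also lower in MMTV-ras (-0.53 ± 0.14, SE; limma, adjusted p = 0.00859), where the call ended without array 1 (-0.40) or 4 (-0.44) and as deposited (-0.35).

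In C3(1) Tag tumors Cxcl14 was 2.65, 1.18, 0.94, 0.83 and 1.70. All were above 0.8, and Cxcl14 rose by 1.46 ± 0.29 (SE; limma, adjusted p = 0.000147). Tnfrsf1b, the TNF receptor of leukocytes, was 0.69, 0.61, 1.54, 0.39 and 0.48 there (0.74 ± 0.21, SE; limma, adjusted p = 0.00508), but the call ended without array 3 (0.54). Il3ra, the interleukin-3 receptor alpha chain, was 0.31, 0.44, 1.33, 0.32 and 0.64 (0.61 ± 0.12, SE; limma, adjusted p = 0.000118). In p53 null transplants Cxcl14 was 0.80, 0.63, 2.22, -0.21 and 0.51, and its mean of 0.79 (adjusted p = 0.0478, limma) lost the call without array 1, 2, 3 or 5 and was 0.43 without array 3.

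In MMTV-PyMT tumors Ccl28 and Tnfrsf1b rose. Ccl28 was 3.32, 0.68, 0.72, 0.79 and 1.43, with the first array far above the rest, and its mean of 1.39 ± 0.34 (SE; limma, adjusted p = 0.00223) became 0.90 and lost the call without that array. Tnfrsf1b was 0.47, 1.64, 0.97, 0.79 and 1.63, all above 0, a rise of 1.10 ± 0.21 (SE; limma, adjusted p = 0.000167). Il12b, the p40 chain of interleukin-12 and interleukin-23, was 0.71, 0.87, 0.74, 0.44 and 0.65 (0.68 ± 0.16, SE; limma, adjusted p = 0.00108).

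Tnfsf8, the CD30 ligand of lymphocytes, was -0.91, -0.66, -0.52 and -0.60 in MMTV-myc, all below 0 (-0.67 ± 0.17, SE; limma, adjusted p = 0.00645), and did not pass as deposited (-0.45). Tnf, the founding ligand of its family, passed at none of the 4 sites and in 2 direct models. It was 0.55, 0.22, 0.21 and 0.17 on the 4 Brca1 arrays with a value (0.29 ± 0.12, SE; limma, adjusted p = 0.0455) and 0.08, -0.06, -0.38, -0.48 and -0.67 in MMTV-PyMT (-0.30 ± 0.11, SE; limma, adjusted p = 0.0294). The first call ended without any 1 of these arrays (0.20 to 0.33), and the second without array 3, 4 or 5 (-0.21 without array 5). Its receptor Tnfrsf1a was 1.48, 1.31 and 0.48 on the 3 p53 floxed arrays with a value and rose by 1.09 ± 0.28 (SE; limma, adjusted p = 0.00278). The other TNF receptor, Tnfrsf1b, was 1.84, 0.74, 0.79 and -0.79 on the 4 Brca1 arrays with a value (0.64 ± 0.24, SE; limma, adjusted p = 0.0238), a call that ended without array 2 (0.25), 3 (0.61) or 4 (0.60).

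Ccl5 and Il6st moved less. Ccl5 was 0.42, 0.54, 0.20, 0.24 and -0.09 in Brca1 tumors (0.26 ± 0.11, SE; limma, adjusted p = 0.0474), and the call ended without array 1 (0.22), 2 (0.19), 3 or 4 and with quantile normalisation. It was -0.32, -0.13, -0.27, -0.41 and -0.73 in MMTV-PyMT (-0.37 ± 0.11, SE; limma, adjusted p = 0.00966) and -0.20, -0.33, -0.45, -0.46 and -0.25 in C3(1) Tag tumors (-0.34 ± 0.11, SE; limma, adjusted p = 0.0132). All 10 of these ratios were below 0, though the first of these calls ended without array 5 (-0.28) and as deposited (-0.41), and the second as deposited and with quantile normalisation (-0.24). Il6st was called lower in 5 models, with means of -0.53 ± 0.11 in Brca1, -0.42 ± 0.11 in p53 null, -0.36 ± 0.12 in p53 floxed, -0.32 ± 0.11 in MMTV-her2/neu and -0.27 ± 0.11 (SE) in C3(1) Tag. The Brca1 change was -0.34 as deposited and -0.26 after quantile normalisation and then did not pass, and the p53 floxed, MMTV-her2/neu and C3(1) Tag calls each ended without single arrays (-0.24 without p53 floxed array 2, -0.26 without MMTV-her2/neu array 1). Of the 2 features of Il6st, only 1 passed on its own in Brca1 (-0.82), p53 null (-0.76), MMTV-her2/neu (-0.51) and C3(1) Tag (-0.62), not always the same one, and neither did in p53 floxed tumors.

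The colony-stimulating factors were called in both directions. Csf3 was -0.62, -0.66, -0.21, -0.60 and -0.43 in MMTV-her2/neu and -0.62, -0.25, -0.55, -0.30 and -0.84 in MMTV-PyMT, all below 0, and fell in both (-0.51 ± 0.16 and -0.51 ± 0.16, SE), though each call ended without some single array (-0.49 to -0.43). In Brca1 tumors Csf3 was -0.12, 0.64, -0.28, 1.32 and 0.40, and its call (0.39 ± 0.16, SE) ended without array 4 (0.16), 2 or 5. In C3(1) Tag tumors Csf3 was -1.10, 0.17, -0.70 and -0.93 on the 4 arrays with a value (-0.64 ± 0.18, SE; limma, adjusted p = 0.00483), and Csf2 was -0.62, -0.70, 0.15, -0.44 and -0.62 (-0.44 ± 0.15, SE; limma, adjusted p = 0.0178). In each gene 1 array was above 0, and as deposited neither passed (-0.29 for Csf3 and -0.11 for Csf2). The call for Csf3 also ended without array 2 (-0.48), and that for Csf2 without array 1 (-0.40), 2 (-0.38) or 5 and with quantile normalisation (-0.34). Csf1 was 0.00, 1.56, 1.98, 0.31 and -0.44 in Brca1 tumors (0.68 ± 0.20, SE; limma, adjusted p = 0.00498) and lost its call without array 2 (0.46) or 3 (0.36).

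**Figure D4:**
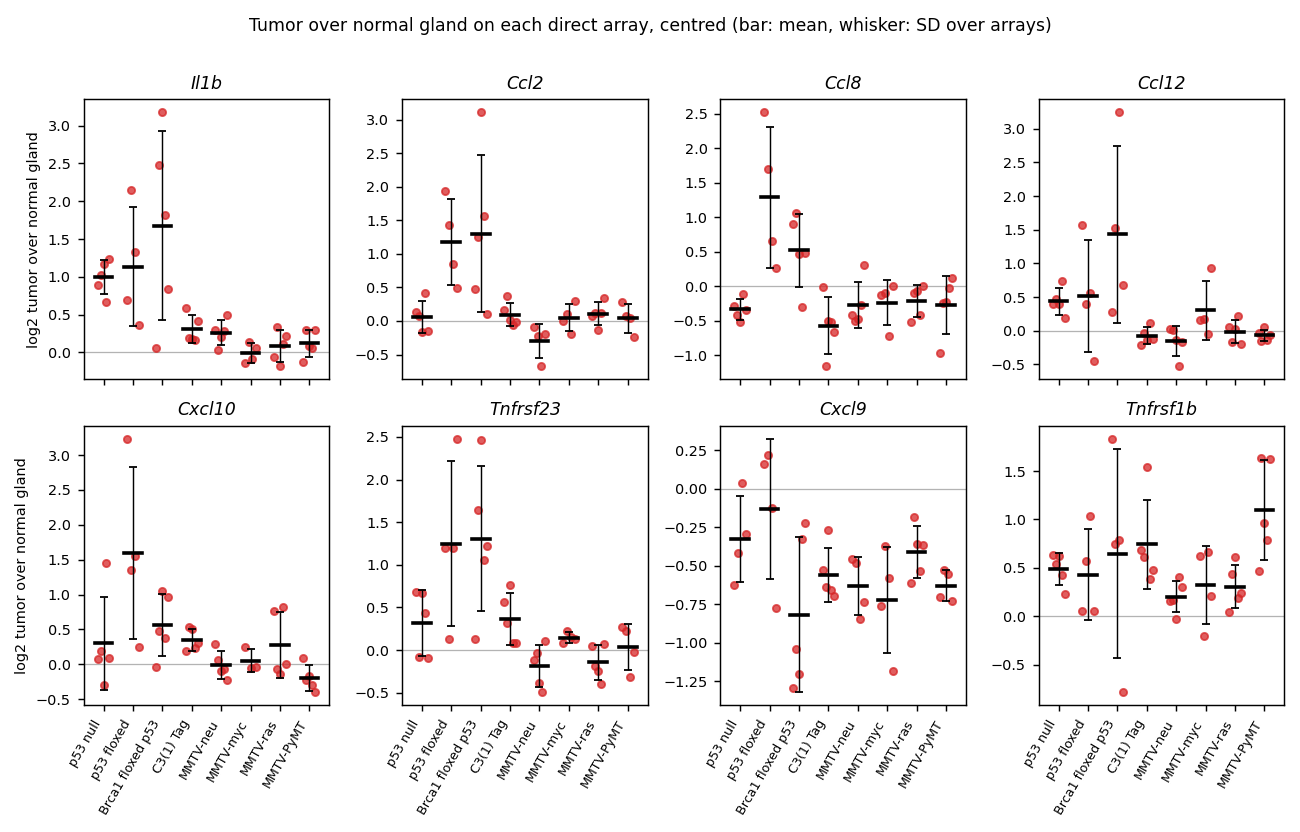
Centred log2 ratio of tumor over normal mammary gland for Il1b, Ccl2, Ccl8, Ccl12, Cxcl10, Tnfrsf23, Cxcl9 and Tnfrsf1b in the 8 direct models. Points are arrays, bars means and whiskers the SD; Il1b is above 0 on all 14 arrays of the p53 null, p53 floxed and Brca1 models, and Brca1 array 3 is the highest point of Il1b, Ccl2 and Ccl12.

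Marker lists moved on the direct arrays as well. All 7 adipocyte markers fell in 7 of the models and 6 of 7 in p53 null transplants, and between 7 and 9 of 9 skeletal muscle markers fell in each model. Macrophage markers rose in 6 of 11 in p53 floxed tumors, with a list mean of 0.60 (arrays from 0.42 to 0.88), and in Brca1 tumors 6 rose and 2 fell, with a list mean of 0.40 (-0.37 to 2.03). Neutrophil markers rose in 3 of 6 in Brca1 tumors (mean 0.97, arrays from 0.45 to 1.54) and in 1 of 6 in p53 floxed tumors (0.80, 0.30 to 2.03). Common leukocyte markers fell in 2 of 6 in each of the 4 MMTV models. Their list means were -0.34 in MMTV-her2/neu, -0.48 in MMTV-myc, -0.43 in MMTV-ras and -0.33 in MMTV-PyMT. In C3(1) Tag tumors 1 rose and 2 fell, and in Brca1 tumors 2 rose and 0 fell. B cell markers fell in 2 of 3 in p53 floxed tumors (mean -0.46). The part of these lists in the rises of Il1b, Ccl2 and other ligands, or in the falls of Ccr2, Cxcl9, Il7r and Csf2rb2, was not tested.

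The fifth comparison tested differences among the models. The 8 models differed for 25 of 59 members, beside 42.1% of all genes. With the database numbers as a random block, an alternative chosen after seeing the data, 14 members passed, beside 1574 of 5768 genes. With a value required on every array fewer members were tested and 10 passed, beside 1113 of 2391 genes. The smallest p belonged to Ccl8 (adjusted p = 0.000199, limma), Il27ra (0.000284), Ccrl2 (0.000465), Tnfrsf23 (0.000502), Il1b (0.000561) and Il17ra (0.000716). The mean of the 3 p53 and Brca1 models was then set against the mean of the 4 MMTV oncogene models. The difference was positive for 17 members and negative for 4, beside 14.4% and 14.6% of all genes, and the split was 11 of 15 positive as deposited and 19 of 21 after quantile normalisation. Over all genes the split was 385 of 1176 positive as deposited and 938 of 1768 after quantile normalisation. In all 13 members passed with the random block, beside 1215 of 5768 genes. With a value required on every array, where fewer were tested, 11 passed, beside 809 of 2549 genes.

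Il1b led that contrast, with a difference of 1.15 ± 0.18 (SE; limma, adjusted p = 1.5e-05). It was followed by Tnfrsf23 at 1.00 ± 0.17 (4.61e-05), Ccl2 at 0.87 ± 0.18 (0.000428), Cxcl14 at 0.86 ± 0.23 (0.00466), Cxcl10 at 0.79 ± 0.19 (0.00155), Ccl12 at 0.78 ± 0.19 (0.00164) and Ccl8 at 0.74 ± 0.16 (0.00071). Il12b (-0.47), Il27ra (-0.40), Il3ra (-0.28) and Il6st (-0.27) had the negative ones, and Il6st rested on 1 of its 2 features (-0.53, with adjusted p = 0.998 by limma for the other). Macrophage markers gave 6 positive and 1 negative of 11 in the same contrast, common leukocyte markers 4 positive of 6 and neutrophil markers 3 of 6, and their part was not tested. The p53 and Brca1 models are of other strains than the MMTV models, which are FVB, and each had its own stretch of database numbers, so model, strain and database number cannot be told apart.

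C3(1) Tag tumors were set against the same 4 MMTV models, all of them FVB. Of 59 members 1 was higher and 1 lower, beside 7% and 4.68% of all genes. As deposited all 7 calls were higher, beside 943 of 1018 calls over all genes. Cxcl14 was higher by 1.64 ± 0.32 (SE; limma, adjusted p = 0.00106). In the MMTV models its arrays ran from -1.31 to 0.71, below all of C3(1) Tag. Ccl28 was -0.71, -0.51, -0.68, -1.04 and -0.41 in C3(1) Tag tumors and lower than in the MMTV models by -1.19 ± 0.38 (SE; limma, adjusted p = 0.0366). The call for Ccl28 ended without any 1 of the 5 C3(1) Tag arrays (-1.26 to -1.10) and as deposited (-0.94).

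Cytokine signal genes were counted in the same list as above, with 28 of 52 tested on the direct arrays. In Brca1 tumors 14 were higher and 4 lower, in C3(1) Tag 8 and 1, in MMTV-PyMT 6 and 1, in MMTV-her2/neu 4 and 1, in MMTV-myc 4 and 2, and in MMTV-ras 1 and 2. All 10 calls in p53 floxed tumors and both in p53 null transplants were higher. Of all genes 26.2% were higher and 21.2% lower in Brca1, 22.4% and 19.5% in C3(1) Tag, and 18.3% and 12% in MMTV-PyMT. The shares were 15% and 10.9% in MMTV-her2/neu, 12.2% and 10.9% in MMTV-myc, and 9.97% and 8.89% in MMTV-ras. They were 18% and 11.1% in p53 floxed tumors and 9.66% and 11.1% in p53 null transplants. The genes named next were picked without a set rule. Stat3 rose by 0.91 in p53 null, 1.65 in p53 floxed and 1.33 in Brca1 tumors. Rela, an NF-kB subunit, rose by 1.17 in Brca1 tumors, and Myd88, the adaptor of the interleukin-1 receptor, by 1.05. Socs2 rose by 1.59 in MMTV-her2/neu, 1.74 in MMTV-myc and 0.93 in MMTV-ras, and Stat6, the transcription factor of interleukin-4 and interleukin-13, by 1.07 in C3(1) Tag tumors. Of the other ligands and receptors, 20 were tested, with 6 higher and 4 lower in Brca1 tumors and 6 and 2 in C3(1) Tag.

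C3(1)/SV40 T/t-antigen mammary tumors were measured in both array sets, with other dyes and another comparator. Over the 58 members in both, the reference and direct changes correlated with r = 0.345 (Pearson) and rho = 0.408 (Spearman), and over 5752 genes r was 0.499 and rho 0.380. These are descriptions across genes, which share arrays and are not independent. Of the members, 25 were called in the reference set and 21 in the direct set, and 9 in both (15.5%), beside 17.6% of all genes. Lower in both were 6 (10.3%, beside 7.46% of all genes), namely Cxcl9, Tnfsf11, Il16, Ccl5, Cxcr5 and Il6st, and 1, Tnfrsf1b, was higher in both (1.72%, beside 7.6%). The 2 features of Il6st gave -0.62 (adjusted p = 0.000566, limma) and 0.080 (adjusted p = 0.706, limma) on the direct arrays. As deposited, the direct changes of Il6st (0.063) and Cxcr5 (0.024) turned sign. Ccl8 went opposite ways, up by 1.61 in the reference set and at -0.01, -1.16, -0.50, -0.52 and -0.67 on the direct arrays (-0.57 ± 0.20, SE; limma, adjusted p = 0.0237; -0.24 and not called as deposited, -0.42 and not called without array 2). Il27ra was lower in the reference set (-0.36 ± 0.12, SE) and higher in the direct set. Cxcl14, at 1.46 on the direct arrays, was 2.73, 2.41, 3.19 and 2.83 in normal mammary gland and 3.30, 2.88, 3.45 and 3.69 in tumors on the reference arrays, which overlapped and did not pass.

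**Figure D5:**
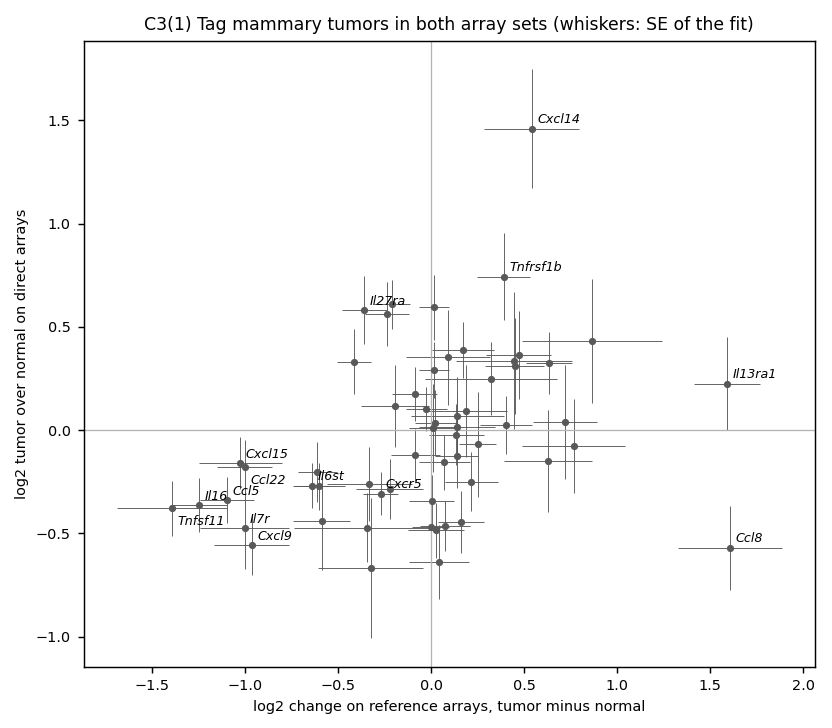
Change of 58 members in C3(1)/SV40 T/t-antigen mammary tumors on the reference arrays (x axis, log2 tumor minus normal) and on the direct arrays (y axis, centred log2 tumor over normal). Whiskers are the SE of each fit; Ccl8 lies at 1.61 on the x axis and -0.57 on the y axis, and Cxcl14 has the highest direct value.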

How the data were processed

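RNA was extracted with TRIZOL and then RNeasy columns and hybridised to 2-colour mouse cDNA arrays, per the labels' protocols. The values used are the log2 ratios that the authors deposited, 1 per feature and array. The image analysis, background correction and normalisation behind them are not given in the sources used here. The log base is not stated: with log2 the rule in the series text called 2638 of 9573 features, the number that text gives, against 3770 with natural logs and 4174 with log10. Direction was taken from the dyes in the labels and checked on tissue markers: 6 of 6 lung epithelium markers in lung and 7 of 7 adipocyte markers in mammary gland had a higher level there than the average of the other 3 normal tissues, and the 1 prostate secretory marker was highest in seminal vesicle, not prostate.

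Of the features, 7486 had 1 gene symbol, 483 several and 1627 none, and unnamed or multiply named features were not used as members. Symbols were updated by Entrez ID to RefSeq GRCm38.p6 for 7395 features and kept as deposited for 91. Where a gene had several features, their mean per array was used. Genes with at least 3 values in each group were fitted with limma 3.58.1 (R 4.3.3, with the data.table package, version 1.17.8), with 8 group means over the 35 reference arrays as deposited and 8 model means over the 38 median-centred direct arrays, which have no dye swaps. Benjamini-Hochberg adjustment ran over all genes tested. The script was tested on simulated data.

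Members, lists and comparisons were chosen with earlier results of these data known. Named members were the largest non-overlapping passing changes at each site (up to 8), the smallest p in each F test (up to 6), the largest passing changes in each direct model (up to 4), and a set fixed by name whatever its values (Tnf, Il1b, Ccl2, Ccl5, Cxcl12, Ccr7, Csf1, Csf2, Csf3, Il6st, Tnfrsf1a and Tnfrsf1b). For that set mainly the changes that passed are described, and most that did not pass are left out. Alternatives were other scalings, the call rule of the series text, complete values, features on their own, the compared groups alone, the replicate number or database number as a block, and each array left out. The number of arrays limits the precision.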

Additional observations from a re-analysis of the deposited data

Results flagged for a closer look

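Among 243 groups of 4 to 6 arrays examined for the named members, 11 held 1 array far from the others of its group, and chance gives about 1 in 20 such groups. On the reference arrays these were a Ccl5 ratio of -0.85 in normal seminal vesicle, Ccl8 at 2.30 in normal mammary gland, Tnfrsf1a at -0.82 in normal prostate, and, in mammary tumors, Ccr7 at 0.90, Cxcl15 at 0.53 and Il1b at 1.03. On the direct arrays they were Ccl28 at 3.32 in MMTV-PyMT, Tnfrsf1b at 1.54 in C3(1) Tag, Csf2 at 1.30 and Tnf at 0.55 in Brca1 tumors, and Tnf at -0.55 in MMTV-myc.

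In 28 further flagged cases a named member's tumor change differed between 2 groups by a limma contrast at an adjusted p under 0.05. They are not all such cases. Ccl2 and Il33 also passed for mammary minus lung, and Il27ra and Il6st for the p53 and Brca1 models minus the MMTV models. Prostate minus seminal vesicle differences were -1.06 for Ccl11, -3.91 for Ccl28, -1.97 for Cxcl12, -2.72 for Cxcl14, -1.42 for Il13ra1, -0.72 for Il15 and -0.57 for Il1r1. Mammary minus lung differences were -0.88 for Ccl22, 1.40 for Ccl3, 1.21 for Ccl7, 1.76 for Ccl8, -1.03 for Ccr7, 0.86 for Csf1, 0.79 for Il13ra1 and 1.05 for Il1r1. The call for Il13ra1 ended without mammary normal 4 (0.63) or mammary tumor 4 (0.65), and that for Csf1 with quantile normalisation (0.53).

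Between the p53 and Brca1 models and the MMTV oncogene models the differences were 0.78 for Ccl12, 0.87 for Ccl2, 0.74 for Ccl8, 0.38 for Ccr2, 0.53 for Csf3, 0.79 for Cxcl10, 0.86 for Cxcl14, -0.47 for Il12b, 1.15 for Il1b, 0.61 for Il7r and 1.00 for Tnfrsf23. Between C3(1) Tag and the MMTV models they were -1.19 for Ccl28 and 1.64 for Cxcl14.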

How the results depend on the processing

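Counts of members called moved with the call rule and, on the direct arrays, with scaling. The call rule of the series text (unadjusted p under 0.001 and 2-fold, with no fold limit for F tests) gave 7 members in prostate, 2 in seminal vesicle, 10 in mammary gland, 3 in lung, 26 for the 4 sites, 5 for prostate minus seminal vesicle and 3 for mammary minus lung. Over all genes it called 1153 of 6767, 216 of 6767, 506 of 6771 and 463 of 6774 from prostate to lung. For the 4 sites it called 3265 of 6750 genes, and for the differences 1146 of 6759 and 432 of 6768. On the direct arrays the same rule gave 6 in p53 floxed, 5 in Brca1, 1 in C3(1) Tag, 2 in MMTV-PyMT, 10 for the 8 models, 1 for p53 and Brca1 minus MMTV and 1 for C3(1) Tag minus MMTV. Of 5768 genes it called 548, 664, 435, 345, 1042, 169 and 118 in that order. The rule gave 0 members by limma in p53 null, MMTV-her2/neu, MMTV-myc and MMTV-ras, where 18, 17, 16 and 12 members had an unadjusted p under 0.05. Over all genes it called 298, 309, 257 and 207 of 5768 there. As deposited there were 5 calls in MMTV-her2/neu, 4 in MMTV-myc, 3 in MMTV-ras, 9 in MMTV-PyMT and 7 for C3(1) Tag minus MMTV, and the signs of Cxcr5 (0.024) and Il6st (0.063) turned in C3(1) Tag. Quantile normalisation gave 18 in p53 null, 19 in Brca1 and 14 in MMTV-ras, and turned Cxcl15 in lung (0.34). Its higher calls were 5 of 28 for prostate, 3 of 24 for lung, 15 of 31 for mammary gland and 9 of 20 for seminal vesicle. Over all genes they were 1880 of 3903, 1356 of 2780, 1334 of 2808 and 764 of 1628 in that order. With database blocks as a factor there were 7 calls in seminal vesicle and 9 for prostate minus seminal vesicle, beside 871 of 6767 and 1733 of 6759 genes. In that fit Ccl28 (-0.025), Ccrl2 (0.24), Cxcl12 (-0.50) and Il1r1 (0.17) turned sign in seminal vesicle. Database blocks as a random block, an alternative chosen after seeing the data, gave 4 in p53 null, 8 in p53 floxed, 5 in MMTV-her2/neu, 14 for the 8 models and 13 for p53 and Brca1 minus MMTV. Of 5768 genes this fit called 808, 983, 1216, 1574 and 1215 in that order. With a value required on every array, which left fewer members to test, 10 were called for the 8 models and 11 for p53 and Brca1 minus MMTV. Over all genes 1113 of 2391 and 809 of 2549 were called there.

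With 1 array left out in turn the counts ran from 25 to 30 in prostate, 25 to 29 in seminal vesicle, 22 to 28 in mammary gland, 18 to 24 in lung, 49 to 54 for the normal tissues, 44 to 53 for the 4 sites, 16 to 22 for prostate minus seminal vesicle and 17 to 24 for mammary minus lung. On the direct arrays they ran from 4 to 7 in p53 null, 8 to 12 in p53 floxed, 18 to 27 in Brca1, 12 to 20 in C3(1) Tag, 2 to 6 in MMTV-her2/neu, 5 to 11 in MMTV-myc, 2 to 5 in MMTV-ras and 9 to 17 in MMTV-PyMT. They were 18 to 26 for the 8 models, 14 to 24 for p53 and Brca1 minus MMTV and 1 to 3 for C3(1) Tag minus MMTV.

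Deviations of same-numbered arrays correlated with r from -0.24 to 0.23 over 16 array pairs on the reference arrays and from -0.42 to 0.44 over 127 on the direct arrays, with 2 and 26 above 0.1 and replicate 1 of the 4 MMTV models at 0.081 to 0.44. Not every pair passed 0.1, so the numbers were not taken to pair the samples. With the replicate block, 28 members were called in prostate, 27 in seminal vesicle, 30 in mammary gland, 24 in lung, 7 in p53 null, 13 in p53 floxed, 26 in Brca1, 21 in C3(1) Tag, 8 in MMTV-her2/neu, 9 in MMTV-myc, 7 in MMTV-ras and 20 in MMTV-PyMT. Over all genes 4099 of 6767, 2886 of 6767, 2516 of 6771 and 2509 of 6774 were called from prostate to lung. Of 5768 genes on the direct arrays 1166, 1574, 2688, 2374, 1470, 1171, 1086 and 1693 were called, in the order of the models just given. For single members and comparisons, 9630 of 10970 alternative values kept direction and side of the threshold, 1304 lost the call, 29 gained it and 7 reversed. These values include each refit without 1 array, which shares all its other arrays with the main fit, and members that were not called. The share that kept its side is therefore no measure of how stable the calls are. The causes were not tested.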
